A study of Mus musculus with 24 samples.

Results

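The response of fat to a high-fat diet was compared between mice with and without the receptor GPR120. The comparison used all 12 epididymal adipose arrays of the 24 arrays in the series, chosen by tissue label and by no measured value. They fell into 4 groups of 3 mice: wild-type (WT) on normal diet (ND; mice 686, 687 and 690), WT on high-fat diet (HFD; mice 546, 547 and 560), GPR120 knockout (KO) on ND (mice 718, 719 and 720) and KO on HFD (mice 427, 428 and 429). All 12 mice carried a mixed 129/Sv and C57BL/6 background, and each array came from a different mouse. Age, time on diet and the deleted part of the gene are not given in the sources used here. Signals are linear MAS5 values in intensity units, and a diet response is the log2 ratio of HFD to ND signal. The interaction is the KO response minus the WT response, so a negative value means that HFD raised a gene less, or lowered it more, in KO than in WT fat. Each difference is given as log2 ± SE from a single limma fit, with Benjamini-Hochberg adjusted p over 11613 genes, and genes with adjusted p under 0.05 were called.

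GPR120, encoded by Ffar4, is a G protein-coupled receptor for long-chain fatty acids that is made by mature adipocytes and by some macrophages. On a high-fat diet adipocytes enlarge and store triglyceride, the capillary bed has to keep up with them, and macrophages gather around stressed or dying adipocytes, where they take up lipid. Genes of adipocytes, vessels and macrophages therefore make up much of the usual diet response of this depot.

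The adipocyte transcripts Adipoq and Fabp4 were present at 3799.9 to 7424 and 6177 to 10466 units on the 12 arrays. The 6 ND arrays also carried epididymis transcripts: 17 such genes summed to 56850 to 88455 units in WT ND and 66199 to 80735 in KO ND, against 119 to 529 in WT HFD and 214 to 6299 in KO HFD, where mouse 427 was the highest. Lcn5, an epididymal lipocalin, read 6229.8 to 10683 on ND and 0.30 to 7.83 on HFD. A list of 11 sperm transcripts summed to 1674 to 28072 units in WT ND, with mice 686 and 690 high, and to 1389 to 1840.5 in KO ND. Mouse 427 also held epithelial transcripts (4229 units, against 240.6 and 355 in the other KO HFD mice) and mouse 547 skeletal muscle transcripts (6069 units, against 530 and 1047 in the other WT HFD mice). The log2 3'/5' signal ratio of Actb, a sign of RNA quality or labelling, was 1.13 to 1.68 in WT HFD and 0.62 to 0.92 in the other 3 groups. The same ratio of Gapdh was -0.48 to -0.34 on all ND arrays, -0.09 to -0.05 in KO HFD and 0.00 to 0.21 in WT HFD. Every diet response below therefore sets arrays with epididymis transcripts against arrays with few, in both genotypes. The part of these admixtures and of the Actb and Gapdh ratios in the interaction was not tested beyond the fits without the named mice.

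The diet response differed between the genotypes for 1273 genes, which is 11.0% of those tested. The KO response was the higher of the 2 for 437 genes (3.76%) and the lower for 836 (7.20%), so 65.7% of the called genes had a lower response in KO fat. The median size of a called interaction was 1.34 on the log2 scale, 921 called genes reached 1 or more, and 3245 genes had an unadjusted p under 0.05. In the same fit 55.3% of genes were called for diet in WT fat and 48.7% in KO fat, 22.5% were called for KO against WT on HFD, and 0.250% for KO against WT on ND. These contrasts share arrays with the interaction. The 29 genes called for genotype on ND became 392 without mouse 687, 11 without 686, 12 without 546, 18 without 719, 9 without 720 and 7 without 718, and the 2612 on HFD became 1646 without 560 and 1587 without 429. The number of called interactions depended on single mice, while all 1273 genes kept the sign of their interaction when any 1 mouse was left out. It was 782 without mouse 546, 726 without 560, 633 without 718, 708 without 719, 677 without 720 and 784 without 429, and 375 without both 686 and 690, a fit that leaves 1 WT ND mouse. Of the 93 called genes that the rule for named genes gives, 35 kept their call in all 21 alternative settings; where a gene below is said to have held, it is one of these.

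**Figure D1:**
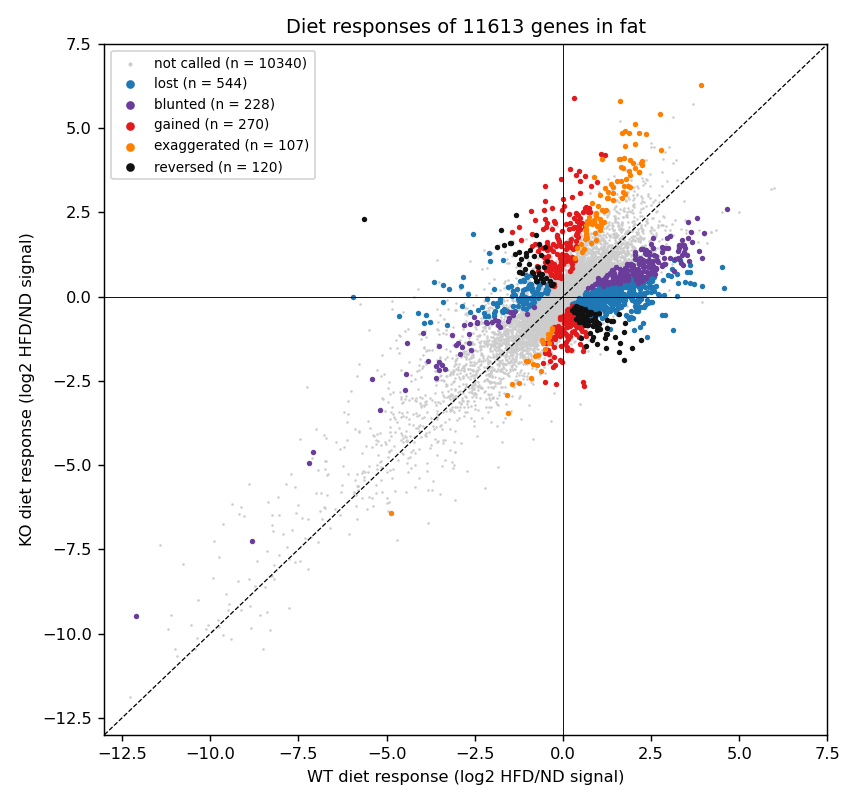
Diet response in KO fat (vertical axis, log2 HFD/ND signal) against that in WT fat (horizontal axis, same unit) for 11613 genes, coloured by response pattern where the interaction was called; genes on the dashed diagonal responded alike. The 544 genes with a lost response lie along the horizontal axis, and the 270 with a gained one along the vertical axis.

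Sorted by their 2 diet responses, the called genes most often had a response that was called in WT and not in KO fat. Such a lost response was found for 544 genes (42.7% of those called), of which 432 rose with HFD in WT fat, from a median of 1.39 in WT to 0.02 in KO, and 112 fell, from a median of -1.17 to 0.00. For 456 of the 544 the 95% interval of the KO response ended under 50% of the WT response, on the side of the WT response. The other end was not limited, and 264 of the 544 had a KO response of opposite sign. A blunted response, called in both genotypes with the same sign and smaller in KO, was found for 228 genes (17.9%). The 182 blunted rises had medians of 2.12 in WT and 0.79 in KO, and the 46 blunted falls -2.84 and -1.25. In the other direction 270 genes (21.2%) gained a response in KO fat, 153 as rises and 117 as falls, and 107 (8.41%) had an exaggerated one, 84 as rises with medians of 1.26 in WT and 3.03 in KO and 23 as falls. A reversed response, called in both with opposite signs, was found for 120 genes (9.43%), and 4 had neither response called. These names describe calls: with a response counted as present at a log2 size of 1 or more, 513 genes were lost, 218 gained, 86 blunted, 64 exaggerated and 31 reversed. Leaving out 1 mouse moved the patterns with the total, and the exaggerated count most, from 39 without 718 or 719 to 235 without 427.

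Across all genes the KO response followed the WT response at a smaller slope. Over 11613 genes Pearson's r was 0.833 and the least squares slope 0.753, and over the 10313 genes with all group means above the filter level of 19.3 units they were 0.757 and 0.698. Outside the epididymis, sperm and epithelial lists (11571 genes) they were 0.819 and 0.742. These are descriptions over genes that share 12 arrays. Noise in the WT response alone pulls such a slope under 1, so it does not measure a smaller KO response. The SD over all genes was 1.50 for the WT response and 1.36 for the KO response. The median interaction of all genes was -0.06.

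Ffar4, the gene removed in the knockout, itself belonged to the lost responses. Its signal was 62.0, 58.3 and 73.7 in WT ND, 97.3, 126 and 171 in WT HFD, 34.2, 33.7 and 35.7 in KO ND, and 26.5, 30.5 and 23.1 in KO HFD. All WT HFD mice were above all WT ND mice, while all KO HFD mice were below all KO ND mice. The WT response was a 1.99-fold rise and the KO response -0.38 ± 0.21 with a 95% interval of -0.85 to 0.09, an interaction of -1.37 ± 0.30 (adjusted p = 0.0175). The call was lost in the fit without mice 686 and 690 (adjusted p = 0.066) and in no other alternative. The sources used here do not say where the probe set lies relative to the deletion, and the signal left in KO fat is no check of the genotype.

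Receptors for fatty acids and other metabolites rose with HFD in WT fat, and 4 of 5 tested rose in KO fat as well. Of the 5, Ffar4 included, 3 had a called lower response and none a higher one, against 7.20% of all genes called lower. The median interaction was -1.75 and the median WT response 3.36. The count of 3 was 2 without 686, 560, 718 or 720. In the fit without both 686 and 690, which leaves 1 WT ND mouse, the median interaction was -2.26. Sucnr1, the succinate receptor, read 91.3, 84.2 and 149.6 in WT ND, 1311, 978 and 975 in WT HFD, 302, 209 and 463 in KO ND, and 541, 1081 and 395 in KO HFD. The WT mice separated widely by diet, whereas the KO mice on the 2 diets overlapped and KO ND mice were above WT ND mice. Its interaction was -2.37 ± 0.53 (adjusted p = 0.0197), lost without both 686 and 690. Ffar2, a receptor for short-chain fatty acids, had an interaction of -1.75 ± 0.42 (adjusted p = 0.0247). Its call was lost without 686, 560, 718 or 720, and without both 686 and 690. Hcar1, the lactate receptor of adipocytes, had -2.21 ± 0.65 and was not called (adjusted p = 0.0529).

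Endothelial genes had the highest share of called interactions among the lists. All 19 tested rose with HFD in WT fat, 10 of them also in KO fat, and 18 of the 19 (94.7%) had a called interaction, all lower, against 7.20% of all genes called lower. Of these 9 were lost and 9 blunted, with a median interaction of -1.82 and median responses of 2.25 in WT and 0.70 in KO. In bulk tissue fewer cells of a type and less RNA per cell cannot be told apart. Between 16 and 18 of the 19 were called after leaving out any 1 mouse, and 12 without mice 686 and 690.

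Kdr, the main receptor for vascular endothelial growth factor, read 90.1, 163 and 139 in WT ND, 625, 747 and 651 in WT HFD, 212, 214 and 201 in KO ND, and 204, 227 and 130.5 in KO HFD. WT HFD mice were far above the other 9 mice, and KO mice on the 2 diets overlapped. Its 5.30-fold rise in WT compared with a KO response of -0.19 ± 0.23 (95% interval -0.70 to 0.32), an interaction of -2.60 ± 0.33 (adjusted p = 0.0033). Tek, the angiopoietin receptor, read 89.0, 90.9 and 95.4 in WT ND, 456, 371 and 439.9 in WT HFD, 131, 142 and 140.1 in KO ND, and 214, 264 and 213 in KO HFD. Here the 4 groups did not overlap: the KO mice started higher on ND and ended lower on HFD. Tek rose 4.59-fold in WT and 1.67-fold in KO (interaction -1.46 ± 0.17, adjusted p = 0.00283). Icam2, an endothelial adhesion molecule, behaved like Tek (interaction -1.91 ± 0.23) and Egfl7, a protein secreted by vessels, like Kdr (-1.69 ± 0.22). Pecam1, the adhesion protein CD31, had responses of 0.97 in WT and -0.52 in KO (interaction -1.48, adjusted p = 0.0182). Vwf, which encodes a clotting factor stored in endothelium, was the member without a call, at 1.93 in WT, 1.06 in KO and -0.87 ± 0.37 for the interaction (adjusted p = 0.153).

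The summed signal of the 19 endothelial genes was 1932 to 2669 units in WT ND, 11358 to 12462 in WT HFD, 3425 to 3712 in KO ND and 4662 to 6633 in KO HFD. KO fat was therefore above WT fat on ND and below it on HFD, without overlap on either diet. In the fit the list's median KO minus WT difference was 0.50 on ND and -1.22 on HFD. Among 12 pericyte and smooth muscle genes 4 had lost responses and a lower interaction: Abcc9 (-1.79 ± 0.26, adjusted p = 0.00431) and Kcnj8 (-1.17), subunits of a potassium channel of pericytes, Rgs5 (-1.20), a pericyte marker, and Notch3 (-0.90). These 4 called genes were 33.3% of the list, against 7.20% of all genes called lower. The call of Abcc9 held, and those of the other 3 were each lost in 6 or more alternatives. The count of 4 was 1 without 686, 546, 718, 719 or both 686 and 690, 2 without 547, 560, 720 or 429, and 7 without both 427 and 547.

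**Figure D2:**
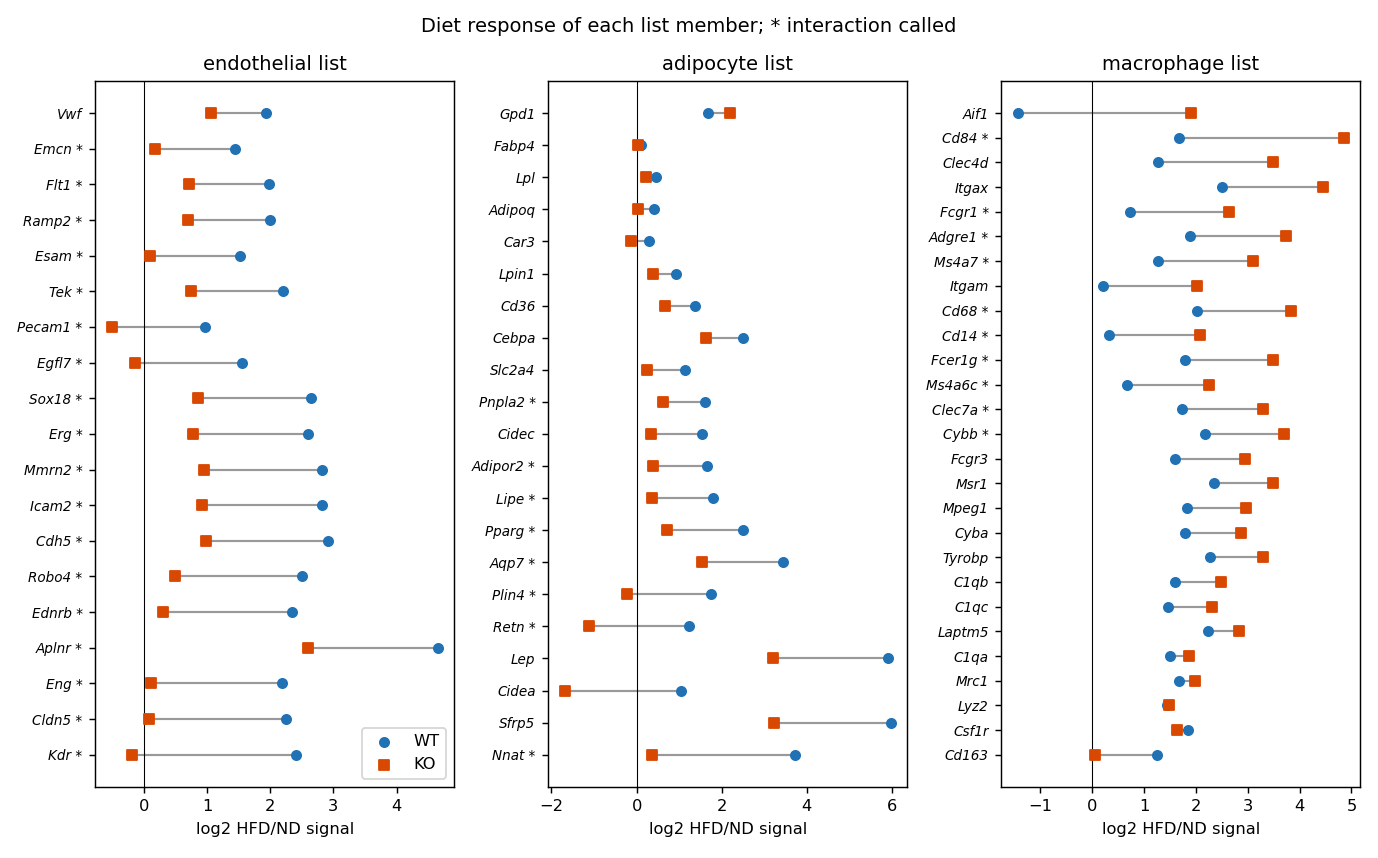
Diet response (log2 HFD/ND signal) in WT (circles) and KO fat (squares) of each tested gene of the endothelial, adipocyte and macrophage lists, ordered by interaction; an asterisk marks a called interaction. All 19 endothelial genes and 20 of 21 adipocyte genes had the smaller value in KO fat, and 25 of 27 macrophage genes the larger.

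Part of the adipocyte genes had a lower diet response in KO than in WT fat. Of 21 tested 17 rose with HFD in WT and 8 in KO fat, and 8 had a called interaction, all lower, against 7.20% of all genes called lower, with a list median of -1.21. Pparg, the master regulator of fat cell differentiation, read 107, 145 and 173 in WT ND, 848, 701 and 816 in WT HFD, 223, 207 and 229 in KO ND, and 313, 473 and 316 in KO HFD. No 2 groups overlapped, and KO mice lay above WT mice on ND and below them on HFD. Pparg rose 5.65-fold in WT and 1.64-fold in KO (interaction -1.78 ± 0.27, adjusted p = 0.00511), a call that held.

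Retn, which encodes resistin, read 1679, 1813 and 2639 in WT ND, 4698, 4099 and 5271 in WT HFD, 2063, 1872 and 2067 in KO ND, and 476, 2016 and 809.6 in KO HFD. Every WT HFD mouse was above every WT ND mouse. The signal was low in 2 of 3 KO HFD mice, with mouse 428 inside the ND range (interaction -2.34 ± 0.56, adjusted p = 0.0246). Plin4, a lipid droplet coat protein, had a lost response (-1.96 ± 0.45, adjusted p = 0.0217; lost without 560, 718 or 429), as did Adipor2, an adiponectin receptor (-1.29 ± 0.27), and Lipe, hormone-sensitive lipase (-1.43). Aqp7, the glycerol channel of adipocytes, and Pnpla2, the first enzyme of triglyceride breakdown, were blunted at -1.91 and -0.99; Aqp7 lost its call without 546, 560, 718 or 720. Adipoq and Fabp4 had interactions of -0.36 ± 0.28 and -0.07 ± 0.26 that were not called (adjusted p = 0.437 and 0.881). Lep, the satiety hormone leptin, had -2.71 ± 1.32 and was not called (adjusted p = 0.208), with WT ND signals spread from 7.38 to 155. The count of 8 called adipocyte genes was 5 without mouse 686, 547 or both 427 and 547, 4 without 546 or both 686 and 690, 3 without 560, 720 or 429 and 2 without 718.

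Among the largest lost rises were Rbp7, B3galt2 and Rflna, which no list holds, and Nnat of the adipocyte list. Rbp7, a retinol-binding protein of endothelium and adipocytes, read 501, 1182 and 666 in WT ND, 5128, 4859 and 5443 in WT HFD, 866, 949 and 729.8 in KO ND, and 451, 879 and 474 in KO HFD. WT HFD mice stood far above every other mouse, and KO mice on the 2 diets overlapped. The 7.01-fold rise in WT compared with -0.56 ± 0.30 in KO, an interaction of -3.37 ± 0.43 (adjusted p = 0.0033). B3galt2, a galactosyltransferase, had -4.10 ± 0.86 (adjusted p = 0.0156) and Rflna, a regulator of filamin, -3.59 ± 0.72 (adjusted p = 0.0135); both lost the call without mice 686 and 690, and Rflna also when its probe sets were averaged. Nnat, neuronatin, one of the 8 called adipocyte genes, had -3.35 ± 0.83 (adjusted p = 0.028), a call lost without 686, 546, 547, 718, 720 or 429.

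The largest blunted rises started from a higher level in KO fat. Fcor, an inhibitor of the factor FoxO1 in adipocytes, read 27.4, 19.1 and 34.6 in WT ND, 399, 397 and 415 in WT HFD, 90.3, 99.7 and 167 in KO ND, and 262, 376 and 162 in KO HFD. KO ND mice were all above WT ND mice, and KO HFD mice were all below WT HFD mice, with 1 KO HFD mouse inside the KO ND range. It rose 15.4-fold in WT and 2.20-fold in KO (interaction -2.80 ± 0.45, adjusted p = 0.00549). G0s2, an inhibitor of triglyceride breakdown, rose 14.5-fold in WT and 2.54-fold in KO (-2.51 ± 0.41), and Trarg1, a protein of glucose transporter traffic, had -2.50 ± 0.43. These 3 calls held.

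The called genes of fatty acid oxidation and insulin signalling all had a lower response in KO than in WT fat. Of 22 fatty acid oxidation genes 18 rose with HFD in WT and 11 in KO fat, 9 had a called lower interaction and none a higher one, against 7.20% of all genes called lower, and the median was -0.68. Acads, which oxidizes short-chain fatty acids, read 127, 115 and 152 in WT ND, 229, 253 and 299.7 in WT HFD, 155, 168 and 191 in KO ND, and 174, 176 and 149.6 in KO HFD. Only the WT HFD mice stood apart (interaction -1.03 ± 0.21, adjusted p = 0.0134). Cpt2, an enzyme of mitochondrial import of fatty acids, had -1.47 ± 0.30 and was called in all fits but the one that averaged its probe sets, and Vnn1, pantetheinase, had -2.63 ± 0.57 and held. Of the 9 calls 4 remained without 718, 719, 720 or both 686 and 690, 5 without 560 or 429, and 6 without 686.

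Of 21 insulin signalling genes 12 rose with HFD in WT and 5 in KO fat. A lower interaction was called for 4 (19.0%), against 7.20% of all genes. The list median was -0.55, while 6 of the 21 had a positive interaction. Gys1, glycogen synthase of muscle and fat, read 42.0, 46.2 and 54.0 in WT ND, 97.0, 73.5 and 132 in WT HFD, 68.4, 61.5 and 53.6 in KO ND, and 29.7, 46.8 and 22.4 in KO HFD. All WT HFD mice were above all WT ND mice, and all KO HFD mice were below all KO ND mice (interaction -2.01 ± 0.40, adjusted p = 0.0126). Gys1 lost its call without 686 and 690 and when its probe sets were averaged. Insr, the insulin receptor, had a gained fall (-1.17), and Akt2, its downstream kinase, and Grb10, an adaptor that restrains it, had lost rises (-1.09 and -1.13). Those 3 calls were each lost without 560, 718, 719 or 429. The count of 4 was 1 in each of these fits, 7 without 428, 2 with no filter, and 0 without both 686 and 690 and with the mean of probe sets. Of 25 oxidative phosphorylation genes 23 had a negative interaction, with a median of -0.34. Only Ndufv1, a complex I subunit, was called (-0.73 ± 0.16, adjusted p = 0.0191), and its call was lost without 718. The called share was 4% of the list, against 7.20% of all genes called lower.

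Genes of fat synthesis changed in both directions. Of 20 tested 5 had a called lower interaction and 1 a higher one, against 7.20% and 3.76% of all genes. Acaca and Acacb, the 2 acetyl-CoA carboxylases, had lost rises (-1.54 ± 0.30 and -2.08 ± 0.44), the desaturase gene Scd2 a lost fall (1.78 ± 0.35), the elongase gene Elovl5 a blunted rise (-0.76 ± 0.15) and Mlxipl, the carbohydrate-sensing factor ChREBP, a gained fall (-1.44). The calls of Acaca and Scd2 were lost without both 686 and 690 and with the mean of their probe sets. Pck1, which in fat supplies glycerol for triglyceride, was reversed. It read 793, 718 and 1713 in WT ND, 2164, 3128 and 4014 in WT HFD, 1990.5, 2039 and 2023 in KO ND, and 603, 930.0 and 498 in KO HFD. HFD raised it 3.03-fold in WT and lowered it 3.09-fold in KO, without overlap in either genotype (interaction -3.23 ± 0.47, adjusted p = 0.00431).

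Further reversed genes ran in both directions. Nrg4, a growth factor secreted by fat, read 84.0, 82.6 and 111 in WT ND, 292, 423 and 634 in WT HFD, 225, 170.4 and 184 in KO ND, and 68.1, 139 and 50.3 in KO HFD. On ND all KO mice were above all WT mice, and on HFD all were below. The responses were a 4.66-fold rise and a 2.46-fold fall (interaction -3.52 ± 0.50, adjusted p = 0.00424). The carboxylesterase genes Ces1f (-3.49 ± 0.51) and Ces1d (-2.74 ± 0.40), members of a cluster of similar genes whose probe sets may read one another, had the same form. Cadm1, a cell adhesion molecule, went the other way: 258, 233 and 267 in WT ND, 70.5, 64.2 and 73.2 in WT HFD, 227, 249.9 and 209 in KO ND, and 663, 365 and 1082 in KO HFD. ND mice of the 2 genotypes overlapped, and HFD mice lay on opposite sides of them (interaction 3.35 ± 0.41, adjusted p = 0.0033). All 4 calls held, as did that of Pck1.

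**Figure D3:**
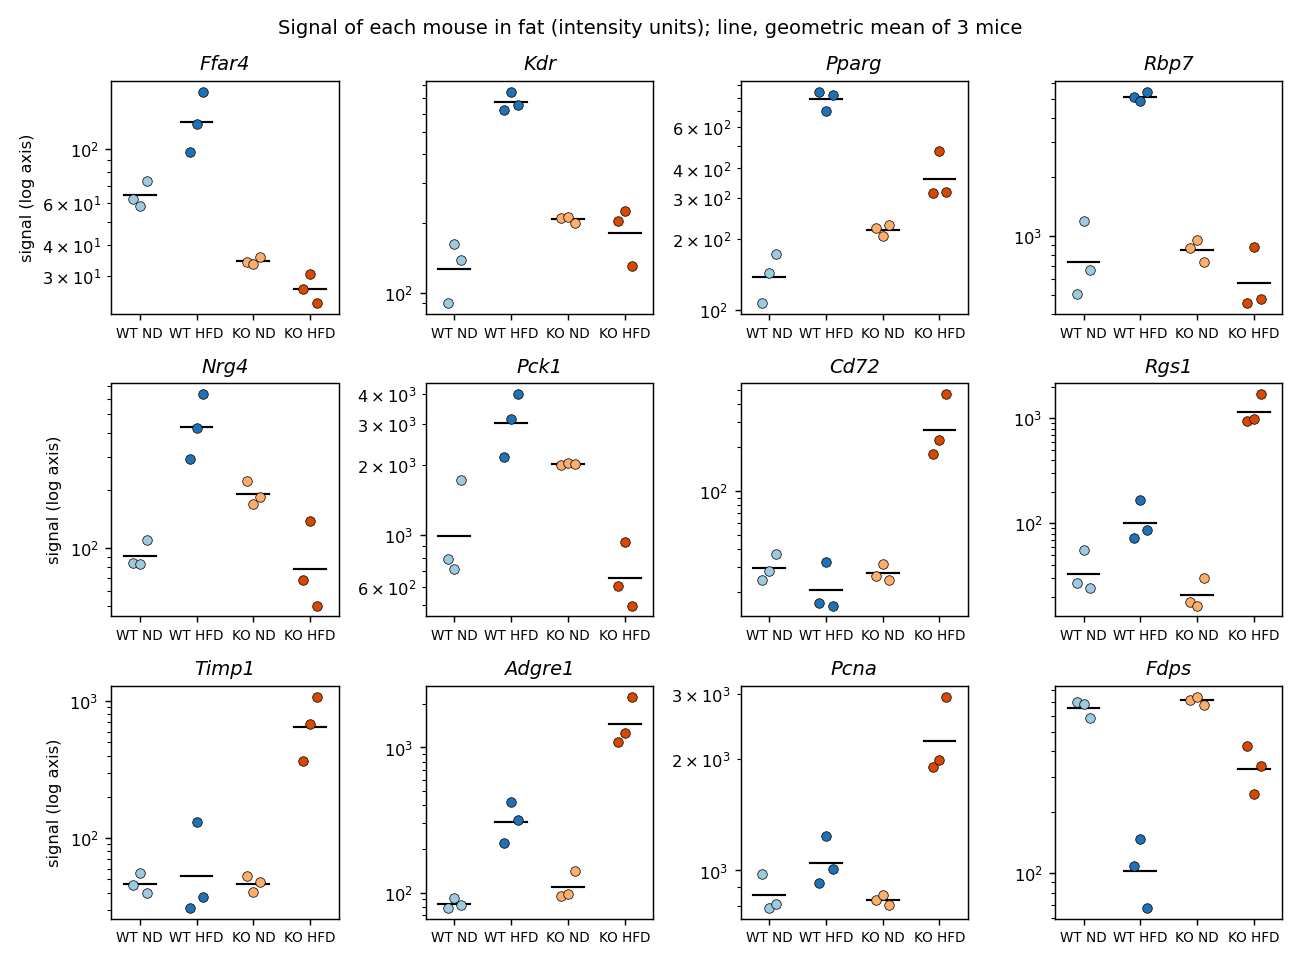
Signal of each mouse (intensity units, log axis) for 12 genes in the 4 groups, with the geometric mean of 3 mice as a line. Kdr, Pparg and Rbp7 were highest in WT HFD, Nrg4 and Pck1 moved in opposite directions with diet in the 2 genotypes, and Cd72, Rgs1, Timp1, Adgre1 and Pcna were highest in KO HFD.

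Most macrophage genes rose with HFD in both genotypes, and for some the rise was larger in KO fat. Of 27 tested 22 rose in WT and 25 in KO, and 10 had a called interaction, all higher, against 3.76% of all genes called higher; 8 were exaggerated and 2 gained. The medians were 1.68 in WT, 2.86 in KO and 1.53 for the interaction. Adgre1, which encodes F4/80, read 78.1, 91.3 and 82.8 in WT ND, 221, 420.0 and 318 in WT HFD, 95.3, 98.0 and 140.3 in KO ND, and 1096, 1267 and 2243 in KO HFD. KO HFD mice were far above every WT HFD mouse, and all 4 groups were apart. The rise was 3.68-fold in WT and 13.3-fold in KO (interaction 1.86 ± 0.40, adjusted p = 0.017), called in all fits but that without 686 and 690.

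The excess did not extend evenly over macrophage genes. Cd84, an adhesion receptor of leukocytes, had 3.18 ± 0.68 (adjusted p = 0.0166), Ms4a7, a membrane protein of tissue macrophages, 1.82 ± 0.29 (adjusted p = 0.00544) and Clec7a, a receptor for fungal glucans, 1.57. Cybb, a subunit of the phagocyte oxidase, had 1.53, and Cd68, a lysosomal glycoprotein, 1.80. By contrast Csf1r, the receptor for the main macrophage growth factor, rose by 1.86 in WT and 1.63 in KO (interaction -0.22 ± 0.20, adjusted p = 0.506), Lyz2, lysozyme, by 1.45 and 1.48 (0.03 ± 0.30, adjusted p = 0.955), and Mrc1, the mannose receptor, by 1.68 and 1.99 (0.31 ± 0.25, adjusted p = 0.442). Cd163, a scavenger receptor for haemoglobin, had 1.26 in WT and 0.06 in KO (-1.20 ± 0.38, adjusted p = 0.0663). Clec7a, Cybb, Cd68, Csf1r, Lyz2, Mrc1 and Cd163 are outside the rule for named genes and were chosen after their values were seen. The summed list signal was 5539.8 to 6178 units in WT ND, 13015 to 22160 in WT HFD, 7215 to 9057 in KO ND and 33670 to 57722 in KO HFD. The count of 10 calls was 4 without 560, 718 or 719, 5 without 546 or 429, 6 without 720 and 3 without both 686 and 690, while it was 16 without 547, 15 without 427 and 19 without both of those.

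Among 18 genes of lipid-associated macrophages 7 had a called higher interaction and none a lower one, against 3.76% of all genes called higher, with a median of 1.37. Ctsk, a lysosomal protease, read 71.7, 87.4 and 84.0 in WT ND, 191, 309 and 251 in WT HFD, 98.0, 80.6 and 135 in KO ND, and 1315, 1250.4 and 3270.2 in KO HFD. Each HFD group was above both ND groups, and KO HFD mice were far above WT HFD mice (interaction 2.49 ± 0.48, adjusted p = 0.0114). Slc37a2, a sugar phosphate carrier, had 3.17 ± 0.54 and Gpnmb, a glycoprotein of lipid-laden macrophages, 3.17. Nceh1, which releases cholesterol from its esters, had a gained rise (2.66 ± 0.48). Atp6v0d2, part of the pump that acidifies lysosomes, was reversed: 237, 390.0 and 363 in WT ND, 60.7, 289 and 118 in WT HFD, 264, 332 and 300.0 in KO ND, and 1119, 1364 and 2697 in KO HFD. The WT mice on the 2 diets overlapped through mouse 547, and KO HFD mice stood above all others (3.77 ± 0.68, adjusted p = 0.00887). Trem2, a lipid receptor that marks these cells, rose by 3.68 in WT and 5.73 in KO and was not called (2.04, adjusted p = 0.225). Without both 427 and 547 the count was 12, and without 686 and 690 it was 4.

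Inflammation genes were called at 5.88%, against 11.0% of all genes. Only 5 of the 20 listed T, NK and B cell genes could be tested. Of 17 inflammation genes Tlr2, a receptor for bacterial lipoproteins, was called (1.03 ± 0.28, adjusted p = 0.037; lost without any of 687, 690, 546, 560, 718, 719, 720, 428 or 429). Saa3, an acute phase protein of fat, and Ccl2, the monocyte chemokine, had 3.61 ± 1.10 and 1.85 ± 0.63 and were not called (adjusted p = 0.058 and 0.0843). Cxcl9, a chemokine induced by interferon-gamma, had -2.36 ± 0.73 (adjusted p = 0.0606). Of these 5 lymphocyte genes 2 were called, both higher, against 3.76% of all genes called higher. Blnk, an adaptor of the B cell receptor that myeloid cells also make, read 306, 363 and 426 in WT ND, 191, 253 and 239 in WT HFD, 325, 418 and 316 in KO ND, and 898, 879 and 1387 in KO HFD. It fell with HFD in WT and rose in KO without overlap (interaction 2.24 ± 0.28, adjusted p = 0.0033). Il7r, the interleukin-7 receptor, rose by 2.03 and 5.12 (3.08 ± 0.78, adjusted p = 0.0296), a call lost without 690, 546, 560, 718, 719, 720 or 429. The defining T cell gene Cd8a had -0.35 (adjusted p = 0.77).

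The 2 highest interactions among genes above the filter in all groups were those of Rgs1 and Cd72. Rgs1, a brake on chemokine receptor signalling in leukocytes, read 26.8, 55.3 and 24.0 in WT ND, 72.4, 168 and 86.6 in WT HFD, 17.7, 16.4 and 30.1 in KO ND, and 942, 977 and 1702 in KO HFD. KO HFD mice were far above every other mouse. The rise was 3.10-fold in WT and 56.4-fold in KO (interaction 4.19 ± 0.57, adjusted p = 0.00343). Cd72, a surface protein of B cells and some macrophages, read 24.3, 28.2 and 36.8 in WT ND, 16.9, 32.1 and 16.1 in WT HFD, 25.8, 31.4 and 24.3 in KO ND, and 179.5, 224 and 466 in KO HFD. The other 3 groups overlapped one another at a low level, and the KO rise was 9.83-fold (3.81 ± 0.52, adjusted p = 0.00343). Zranb3, an enzyme of stalled replication forks, also had a gained rise (3.55 ± 0.61, adjusted p = 0.0068).

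Most matrix genes rose with HFD in both genotypes. Of 33 tested 26 rose in WT and 29 in KO, with median responses of 1.74 and 1.76. The interaction was positive for 15 and negative for 18 of them, called higher for 3 and lower for 2, and 10 had an unadjusted p under 0.05. The called share was 15.2%, against 11.0% of all genes. Timp1, an inhibitor of matrix proteases, read 45.6, 55.7 and 39.7 in WT ND, 30.8, 131 and 37.0 in WT HFD, 52.7, 40.3 and 47.8 in KO ND, and 363, 681 and 1081 in KO HFD. It rose 13.8-fold in KO, and the WT ratio was 1.14-fold, with mouse 547 the one WT HFD mouse above the ND range (3.60 ± 0.71, adjusted p = 0.0123). Lum, lumican of collagen fibrils, had a gained rise (1.50 ± 0.34). Sparc, a collagen-binding protein, ended level on HFD, at 6129.8 to 6664 in WT and 5611 to 7212 in KO, from 1297 to 1619 in WT ND and 2449.8 to 3651 in KO ND, so that its interaction of -1.05 ± 0.22 (adjusted p = 0.0154) came with a difference on ND. Averaging its probe sets ended the call. Eln, elastin, had a lost rise (-1.60) and Mmp2, gelatinase A, an exaggerated one (1.37, adjusted p = 0.0496).

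The called cell cycle and immediate early genes all had a higher diet response in KO fat. Of 20 cell cycle genes 3 rose and 5 fell with HFD in WT while 12 rose and 0 fell in KO, and 8 had a called higher interaction (median 1.22), against 3.76% of all genes. Pcna, the sliding clamp of DNA replication, read 977, 791 and 812 in WT ND, 927, 1237 and 1009 in WT HFD, 832, 859 and 808 in KO ND, and 1899, 1987 and 2949 in KO HFD. KO HFD mice were above all others, and the other groups lay close together (interaction 1.13 ± 0.24, adjusted p = 0.0163). Mcm5, a subunit of the replicative helicase, had 1.31, Rrm2, which makes deoxynucleotides, 1.68, and Mki67, the Ki-67 antigen, 2.50; Rrm2 lost its call without 686, 718, 719, 720 or 429. For the mitotic genes Ccnb2 and Birc5 part of the interaction lay in WT ND mice. Ccnb2, cyclin B2, read 275, 23.2 and 94.2 there, where mice 686 and 690 also held the sperm transcripts, against 17.6 to 24.9 in KO ND and 61.6 to 104 in KO HFD. Its interaction of 3.74 ± 0.94 (adjusted p = 0.0296) lost its call without 690, 546, 560, 718, 719, 720 or 429. The list's count of 8 was 0 without both 686 and 690, 2 without 718 or 429, 3 without 546, 560, 719 or 720, 4 without 686 and 12 without 687.

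Of 22 immediate early genes 8 were called, all higher (median 0.83), against 3.76% of all genes called higher. With HFD 7 of the 22 rose and 6 fell in WT, while 12 rose and 2 fell in KO. The 8 calls were 4 gained rises, 2 exaggerated rises, 1 lost fall and 1 blunted fall. Atf3, a stress-induced transcription factor, read 40.2, 53.2 and 48.5 in WT ND, 39.9, 120.2 and 59.7 in WT HFD, 42.6, 45.4 and 54.8 in KO ND, and 359.6, 429.5 and 892 in KO HFD. Only the KO HFD mice stood apart (2.96 ± 0.56, adjusted p = 0.0105). Fos, a subunit of the factor AP-1, rose by 1.89 in WT and 3.61 in KO (1.72 ± 0.33), and Junb, its partner, had -0.40 in WT and rose by 1.01 in KO (1.42 ± 0.33, adjusted p = 0.0226). Egr1, an early growth response factor outside the rule for named genes and given for comparison, had 0.64 ± 0.36 (adjusted p = 0.272). The count was 4 without 560 or 719, 3 without 720, 5 without 690 or 429 and 1 without 686 and 690.

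**Figure D4:**
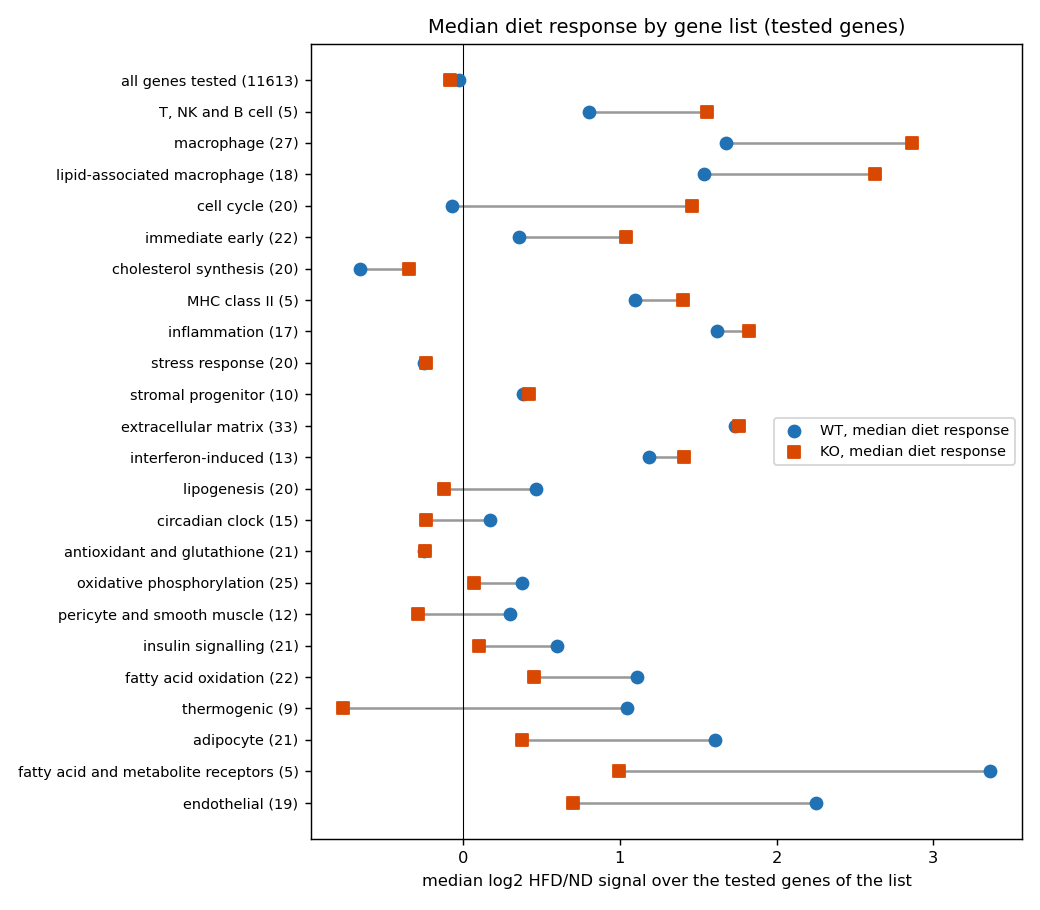
Median diet response (log2 HFD/ND signal) in WT (circles) and KO fat (squares) over the tested genes of each list, with their number in brackets. The medians were 2.25 and 0.70 for endothelial genes, 1.68 and 2.86 for macrophage genes and -0.03 and -0.08 for all genes.

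Falls that were lost or blunted in KO fat formed a further group, and their ND signals differed widely. The lost fall of Srebf2 had ND means of 81.5 units in WT and 64.3 in KO. Egr2, a transcription factor of the early growth response family, read 806, 1157 and 1031 in WT ND, 33.2, 80.0 and 36.9 in WT HFD, 1133, 1192 and 1183 in KO ND, and 414, 424 and 516 in KO HFD. The ND groups overlapped, and the HFD groups were far apart. It fell 21.4-fold in WT and 2.60-fold in KO (interaction 3.04 ± 0.39, adjusted p = 0.0033). Rnf128, a ubiquitin ligase of T cell anergy, fell 14.7-fold in WT and had a response of -0.55 ± 0.31 in KO (3.32 ± 0.44, adjusted p = 0.0034), with KO HFD signals of 911, 823 and 1649 against 1528 to 1606 in KO ND and 65.7 to 154 in WT HFD. Stap1, an adaptor of kinase signalling in leukocytes, had 3.46 ± 0.56, Basp1, a membrane protein of growing nerve endings, 3.17 ± 0.59, and Cd52, a surface glycoprotein of lymphocytes and of epididymal epithelium, 2.88 ± 0.55. The defining epididymis gene Lcn5 had an interaction of 0.40 ± 1.02 (adjusted p = 0.836). On the epididymis list 1 of 17 genes was called, Adam7 (2.63 ± 0.58, adjusted p = 0.0176), at 0.67 to 2.04 units in WT HFD and 4.29 to 14.6 in KO HFD, and this call was lost with 16 units added before log2 (adjusted p = 0.27) and without 686 and 690. On the sperm list limma called 0 of 11 (2 at an unadjusted p under 0.05) and on the epithelial list 0 of 14 (0 unadjusted). Of all genes 11.0% were called. The part of the epididymis transcripts in the falls was not tested.

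**Figure D5:**
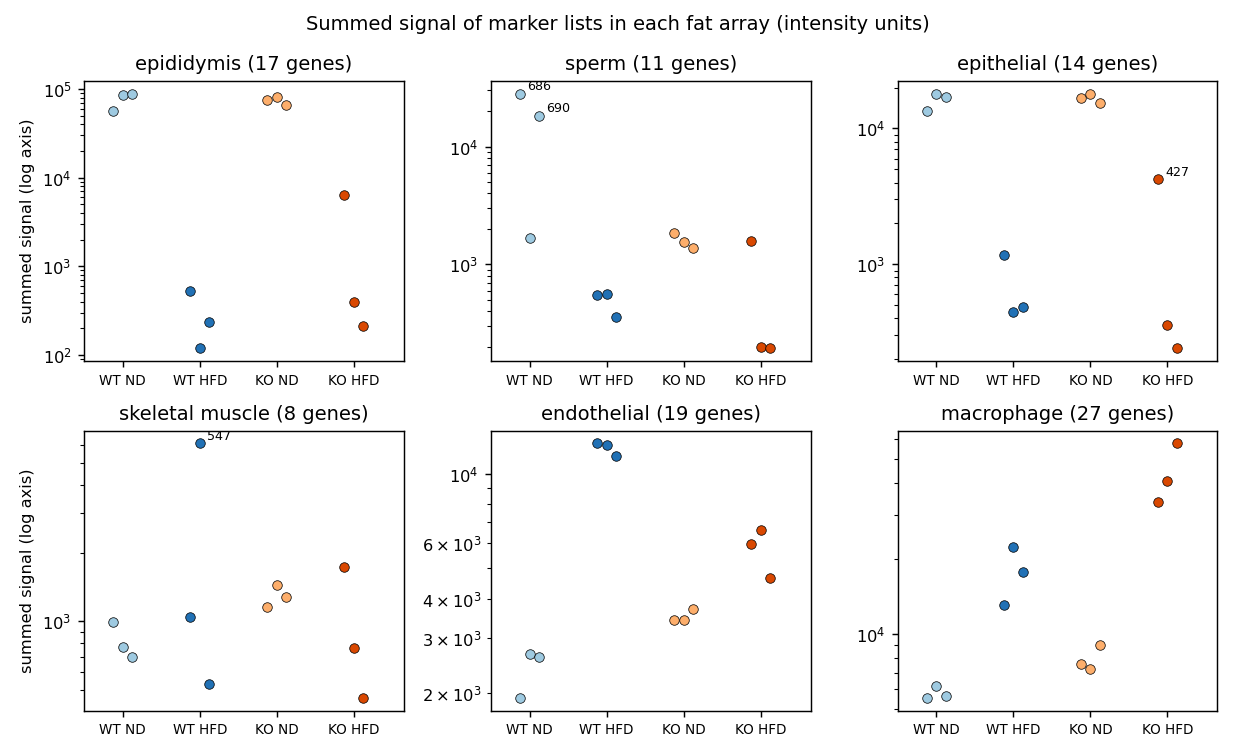
Summed signal (intensity units, log axis) of 6 marker lists on each of the 12 arrays, by group; arrays named in the text are labelled by mouse number. Epididymis transcripts were high on all 6 ND arrays, sperm transcripts on the arrays of mice 686 and 690, and endothelial and macrophage sums differed between WT HFD and KO HFD without overlap.

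Exaggerated falls were found for 23 genes and gained falls for 117. Isg20, an RNA exonuclease induced by interferon, read 744, 891 and 677 in WT ND, 244, 236 and 293 in WT HFD, 1031, 1057 and 913 in KO ND, and 129.7, 139.6 and 129.9 in KO HFD. No 2 groups overlapped: it fell 2.99-fold in WT and 7.51-fold in KO (interaction -1.33 ± 0.18, adjusted p = 0.0034). Echdc2, a mitochondrial protein of the hydratase family, had -1.90 ± 0.42, lost without both 686 and 690. Fam13a, a gene linked to fat distribution, read 231, 162 and 286 in WT ND, 252, 201 and 741 in WT HFD, 250.5, 189 and 177 in KO ND, and 25.2, 42.6 and 32.5 in KO HFD. The other 3 groups overlapped, and all KO HFD mice lay far below them (-3.24 ± 0.59, adjusted p = 0.00928).

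Of 20 cholesterol synthesis genes 5 had a called higher interaction and none a lower one, against 3.76% of all genes called higher. With HFD 11 of the 20 fell in WT and 8 in KO fat, and 6 had a negative interaction (median 0.48). Fdps, which makes farnesyl diphosphate, read 699, 687 and 586 in WT ND, 109, 147 and 67.1 in WT HFD, 721, 747 and 678 in KO ND, and 428, 246 and 339 in KO HFD. ND mice of the genotypes overlapped and HFD mice did not. The fall was 6.39-fold in WT and 2.17-fold in KO (1.56 ± 0.37, adjusted p = 0.0227). Srebf2, the transcription factor of the pathway, fell by 1.63 in WT and had -0.40 in KO (1.23 ± 0.27, adjusted p = 0.0173). Dhcr7, the last enzyme of the pathway, read 22.2 to 35.7 in WT ND, 29.1 to 39.4 in WT HFD, 27.5 to 52.6 in KO ND and 114 to 183 in KO HFD, a rise called in KO and not in WT fat (1.74 ± 0.41). Lss, lanosterol synthase (0.87), and Cyp51, lanosterol demethylase (1.12), were called at adjusted p = 0.0466 and 0.0482. Calls were lost widely, that of Fdps without 718, 720 or 429 and that of Dhcr7 without those mice, 546 or 560. The count of 5 was 1 without 718, 720 or both 686 and 690, 2 without 546, 560 or 429 and 3 without 686, 687, 547 or 719.

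Because the called genes of the cholesterol and cell cycle lists all had higher interactions, promoters of both lists were searched for 3 motifs on both strands in the 250 bases before the gene start, in RefSeq promoters of build GRCm38.p6. A gene was counted if any of its promoters matched. The CCAAT box (letters CCAAT) was found in all 16 cholesterol list genes with a promoter in the table. It was found in 15 of 17 cell cycle genes, against 40.1% of 9393 tested genes with a promoter and 37.5% of all 27025 genes with one. The sterol regulatory element (TCACNCCAC) was found in 1 of the 16, against 1.22%, and the E2F site (TTTCCCGC or TTTGGCGC) in 3 of the 17, against 2.82% of tested genes; the motif letters do not overlap. Of the called genes with a promoter, 4 of 4 on the cholesterol list and 6 of 7 on the cell cycle list held a CCAAT box. The windows around it are printed 5′ to 3′ on the strand of the gene, with the box in capitals (ATTGG is the box on the other strand), for 4 cholesterol genes and 2 replication genes.
Srebf2, chr15:82147124-82147148, plus strand: tcgcgcgccgATTGGctaatgcaag
Dhcr7, chr7:143830119-143830179, plus strand: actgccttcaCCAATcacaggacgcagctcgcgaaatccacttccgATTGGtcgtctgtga
Lss, chr10:76531533-76531557, plus strand: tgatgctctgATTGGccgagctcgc
Cyp51, chr5:4104712-4104736, minus strand: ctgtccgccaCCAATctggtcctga
Pcna, chr2:132253253-132253277, minus strand: cacgggtacgATTGGtccttgagga
Rrm2, chr12:24708194-24708218, plus strand: tcagcggcgtCCAATgggaggcgag
A match is a description of these letters and says nothing of a bound factor.

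Of the remaining lists none had more than 1 call, while 11.0% of all genes were called. Among interferon-induced genes limma called 0 of 13 (3 at an unadjusted p under 0.05), among MHC class II genes 0 of 5 (1 unadjusted), circadian clock genes 0 of 15 (4 unadjusted), thermogenic genes 0 of 9 (0 unadjusted), mesothelial genes 0 of 9 (0 unadjusted) and skeletal muscle genes 0 of 8 (1 unadjusted). Irf1, an interferon-response factor, had -0.70 (adjusted p = 0.0764), Cd74, the invariant chain of MHC class II, 0.75 (adjusted p = 0.114), and Cry2, a clock repressor, responses of 0.40 in WT and -0.60 in KO (adjusted p = 0.0619). Cidea, a droplet protein high in brown fat, had -2.74 ± 1.32 (adjusted p = 0.203), with WT HFD signals spread from 51.4 to 478. Stress response genes had 1 call of 20 (Ddit3, a factor of the unfolded protein response, 0.82; lost without 686, 690, 546, 560, 718, 720 or 429), antioxidant genes 1 of 21 (Hmox1, haem oxygenase, 2.28; lost without 686, 687, 546, 547, 719, 720, 427 or 429) and stromal progenitor genes 1 of 10 (Pdpn, podoplanin, 2.18 ± 0.42, adjusted p = 0.0117). Hepatocyte genes had 1 of 14, Cyp2e1, an ethanol-metabolizing cytochrome also made by adipocytes (-1.52, adjusted p = 0.0466), a call kept in 6 of 21 alternatives.

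For 106 of the called genes at least 1 group mean lay under the filter level, so that the fitted log2 value rests on low signals, and signals are given. Without the floor of 1.08 units 1267 of all 1273 called genes kept their call. Npy, neuropeptide Y, read 716, 849.7 and 577 in WT ND, 9.26, 14.8 and 20.4 in WT HFD, 3.14, 2.53 and 10.7 in KO ND, and 50.1, 29.9 and 6.85 in KO HFD. Only WT ND mice had a high level (adjusted p of the interaction = 0.0033). Gpr50, a relative of melatonin receptors, read 263 to 802 in KO HFD and at most 17.6 in the other 9 mice (adjusted p = 0.00586). Cd209g, a C-type lectin, was low in WT ND alone, at 3.83 to 9.12 units, against 57.2 to 65.1 in KO ND, 89.4 to 156 in WT HFD and 36.2 to 147 in KO HFD (adjusted p = 0.00524). For Npy and Cd209g the mice of the 2 genotypes were apart on ND and overlapped on HFD. Akap3, a sperm protein, read 1883, 41.0 and 784 in WT ND and at most 40.5 elsewhere, which sets apart the arrays of mice 686 and 690 that held sperm transcripts (adjusted p = 0.0398). Ankef1, an ankyrin repeat protein, and D430019H16Rik read low in WT ND and highest in WT HFD, at 296 to 542 and 113 to 249.8 units (adjusted p = 0.0151 and 0.0176).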

How the data were processed

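Fat RNA of each mouse was hybridised to 1 Affymetrix mouse array. The authors deposited linear signal intensity values made with MAS5, per the submitters' processing notes; the sources used here do not give its version. The 2% trimmed mean was 100.03 to 100.04 on every fat array. Of 45101 probe sets 34945 had 1 gene symbol, 932 several and 9160 none, and 64 controls were left out. Signals were floored at 1.08 units (the 10th percentile) and put on the log2 scale. The brightest probe set stood for a gene. Genes whose mean log2 signal over the 12 fat arrays lay under that of 19.3 units were left out, so 11613 of 18193 were tested. limma 3.58.1 in R 4.3.3 fitted 4 group means with eBayes and its variance trend, on 8 residual degrees of freedom. The script was tested on simulated data. Patterns are defined by which diet responses were called at adjusted p under 0.05. MAS5 signals carry no read depth, and 3 arrays per group limit the precision.

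Named genes are Ffar4, the 8 highest and 8 lowest called interactions, the 3 largest per pattern and direction, the 3 highest and 3 lowest called genes with a dim group, and the 4 members of smallest p of each list. Not all of them are described. Acacb, Adipoq, Cd163, Cd68, Cd8a, Clec7a, Csf1r, Cybb, Cyp51, Egr1, Fabp4, Gpnmb, Lcn5, Lep, Lipe, Lyz2, Mki67, Mlxipl, Mmp2, Mrc1, Pecam1, Pnpla2, Retn, Trem2 and Vwf fall outside that rule and were chosen after their values were seen. The comparison and the lists were chosen with earlier results of these data known. The alternatives tried were no filter, no floor, quantile normalization, 16 units added before log2, the mean of probe sets, no variance trend, leaving out each mouse, leaving out mice 427 and 547 or mice 686 and 690, patterns by size, and, added after seeing the data, a filter on linear means. Liver arrays of the series were not used here.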

Additional observations from a re-analysis of the deposited data

Results flagged for a closer look

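For 10 of the named genes every HFD mouse lay on one side of every ND mouse in WT fat and on the opposite side in KO fat, and the difference itself was called by limma. The interaction was -3.52 for Nrg4, -3.49 for Ces1f, -3.23 for Pck1, -2.74 for Ces1d, -2.11 for Lnx1, -2.01 for Gys1 and -1.37 for Ffar4, all rising with HFD in WT and lower in KO HFD than in KO ND mice. Lnx1, a ubiquitin ligase, read 212, 280.5 and 357 in WT ND, 408, 444 and 414 in WT HFD, 331, 333 and 353 in KO ND, and 163, 145 and 71.8 in KO HFD. The opposite form was seen for Cadm1 (3.35), Blnk (2.24) and Junb (1.42). Over all 1273 called genes 207 had such a pattern. Selection by a called interaction favours this form, and its number over all 11613 tested genes was not counted. Groups of 3 mice are too small for the check of single outlying samples.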

How the results depend on the processing

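No paired analysis was possible because each mouse gave 1 fat array and no 2 fat groups share a mouse. Leaving out 1 mouse gave 633 to 1509 called interactions (194 to 620 higher, 439 to 974 lower), 5675 to 6581 genes called for diet in WT, 4485 to 5973 in KO, 1587 to 2908 for genotype on HFD and 7 to 392 on ND, 87 to 246 blunted, 316 to 728 lost, 39 to 235 exaggerated, 114 to 346 gained and 64 to 153 reversed. Quantile normalization gave 81 genes called for genotype on ND and the fit without variance trend 18. Without a filter 66 genes were exaggerated. The mean of probe sets gave 806 called interactions, 499 of them lower, 18 genes on ND, and 117 blunted, 56 exaggerated and 73 reversed; 1249 of the 1273 genes kept their sign. Without mice 427 and 547 exaggerated genes numbered 341 and gained ones 470. Without mice 686 and 690 there were 375 called interactions (113 higher, 262 lower), 2 genes on ND, and 101 blunted, 150 lost, 8 exaggerated, 74 gained and 42 reversed. Classed by size there were 86 blunted, 64 exaggerated and 31 reversed genes. Apart from fewer samples or other probe sets in these fits, the causes were not tested. No named called gene changed sign, and of 3128 gene values under alternatives 264 lost and 50 gained a call.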
